A study of Homo sapiens with 6 samples.

Results

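The genes of human mitochondrial DNA were followed in total RNA of the myeloma cell line H929 after an in vitro reaction with or without the endonuclease IRE1. Members were all genes on chromosome MT whose symbol starts with MT- and a letter, which gave 37 of the 57905 genes in the count files, namely 13 mRNAs, 2 rRNAs and 22 tRNAs. Each of 6 reactions held 5 μg of total RNA at 37 °C for 1 h. In 3 of them (the IRE1-treated samples) 2 μg of human IRE1, made as a recombinant protein, was present, and 3 controls had no enzyme. Heating to 95 °C, for 5 min, ended the reactions. RNA held by poly-T beads was then made into stranded paired-end libraries. The reaction was cell-free, so these samples measure RNA in a tube and not a response of living cells, and each group comes from a single cell line.

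Mitochondrial DNA is a small circle that is transcribed from both of its strands into long precursor RNAs, which are cut mainly at the tRNAs that lie between the other genes. The 13 mRNAs encode core subunits of the respiratory chain and of ATP synthase, and the rRNAs and tRNAs serve the ribosome inside the organelle. Most of these mRNAs carry a short poly(A) tail, added after cutting, which lets oligo(dT) beads hold them. IRE1 is a sensor of unfolded proteins in the endoplasmic reticulum membrane. It cuts XBP1 mRNA and other RNAs on the cytosolic side, and in the cell does not meet RNA within the mitochondrial matrix, whereas total RNA in a tube holds both.

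The depth on genes was 19615715 to 25678499 counts per library. All 10 plasma cell markers examined were detected, from CD38 (490 to 562 normalized counts) to JCHAIN (82695 to 96975), while the B cell marker MS4A1 was at 0 in 5 of the 6 libraries and the T cell gene CD3E was at 899 to 1179. For normalized counts, each count was divided by its library's TMM-scaled size and brought to the average such size. TMM factors ranged from 1.02 to 1.03 for controls, against 0.947, 0.980 and 0.996 for replicates 1, 2 and 3 with IRE1, so IRE1-treated replicate 1 stood farthest from the controls.

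Genes of mitochondrial DNA took 4.93, 4.89 and 4.97% of the counts on genes in control replicates 1, 2 and 3, and 5.33, 5.12 and 5.25% in the IRE1-treated replicates. The share was thus higher in all 3 IRE1-treated libraries than in any control, by 0.302 percentage points between the group means (4.93% ± 0.0431 and 5.23% ± 0.105, SD, n = 3 each). A larger amount of these RNAs and a smaller amount of all other RNA in a bulk library cannot be told apart. The mRNAs made up 95.7% of the mitochondrial counts in either group, and the rRNAs 4.26% in the controls and 4.29% in the IRE1-treated samples. Within the mRNAs, the 3 genes of cytochrome c oxidase (complex IV) and the 7 of NADH dehydrogenase (complex I) took similar parts, 2.09% ± 0.0435 and 2.00% ± 0.0393 of the counts on genes in the controls (SD, n = 3).

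**Figure D1:**
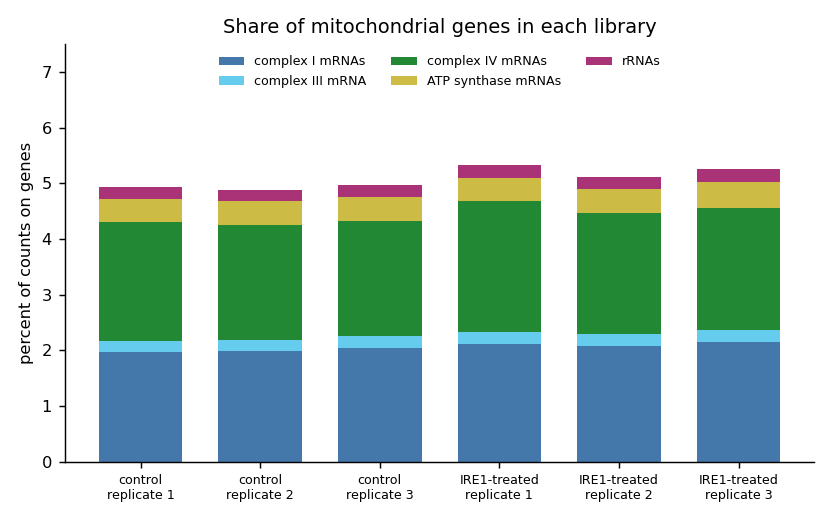
Percent of the counts on genes that fell on mitochondrial mRNAs, grouped by the complex they encode, and on mitochondrial rRNAs, for each of the 6 libraries. The stacks reach 4.89 to 4.97% in the controls and 5.12 to 5.33% in the IRE1-treated samples.

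Members differed widely in level. Per kilobase of gene, MT-CO2, a subunit of cytochrome c oxidase, was highest in the controls with 253322 ± 6492 normalized counts (SD, n = 3). MT-ND4 (180643 ± 4011), MT-CO3 (145963 ± 2644), MT-ATP6 (110274 ± 2103) and MT-CO1 (107686 ± 9746) came next. MT-ATP6 and MT-CO1 overlapped between libraries, with control replicate 1 at 118930 for MT-CO1. The order went on with MT-ATP8 (84468), MT-ND4L (65605), MT-ND3 (50350), MT-ND2 (47711), MT-ND1 (42792), MT-CYB (38084) and MT-ND5 (32190), in which only MT-ND3 and MT-ND2 overlapped. MT-ATP8 lies on the same mRNA as MT-ATP6, and MT-ND4L on that of MT-ND4. Their lower counts per kilobase therefore need not mean less RNA. Both rRNAs lay below these mRNAs in the bead-selected RNA. MT-RNR2, the large rRNA, had 25636 ± 172 normalized counts per kilobase and MT-RNR1, the small rRNA, 5843 ± 218 (SD, n = 3).

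MT-ND6 is the only mRNA transcribed from the light strand, and its mature form is known to lack a poly(A) tail. It was the lowest by far, at 322 ± 14.5 normalized counts per kilobase (SD, n = 3). Its raw counts were 190, 182 and 166 in the controls, against 137, 142 and 176 with IRE1. All 9 light-strand genes together held 0.0158% of the mitochondrial counts in the controls and 0.0135% in the IRE1-treated samples, and MT-ND6 supplied every one of these counts. Whether HTSeq was run with strand is not given in the sources used here, so antisense RNA could be included.

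**Figure D2:**
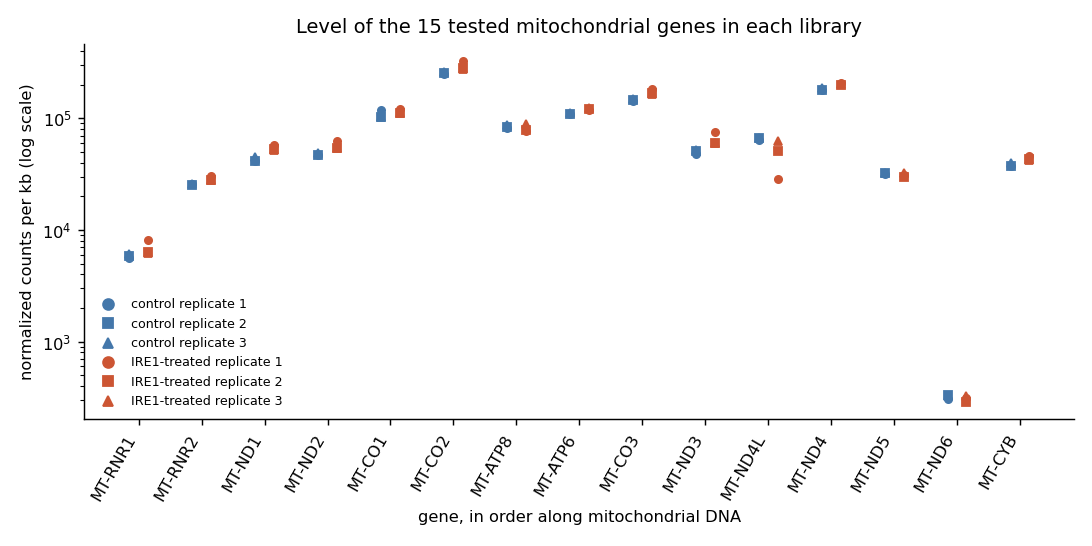
Normalized counts per kilobase of gene (log axis) of the 15 tested members in order along mitochondrial DNA, 1 point per library, with controls in blue and IRE1-treated samples in red. Control means span 322 for MT-ND6 to 253322 for MT-CO2, and the IRE1-treated replicates of MT-ND4L spread more than those of its neighbours.

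The tRNAs were nearly absent from the counts. Of the 22 genes, 21 had no count in any library. The exception was MT-TM, the methionine tRNA gene, with 0, 2 and 1 counts in the controls, against 1, 0 and 0 with IRE1. The tRNA genes are 59 to 75 bases long, which is shorter than the reads the study describes, and they border other genes without a gap or with a short one. A read that covered a tRNA would therefore usually reach into a neighbour, so a change in tRNAs was not detectable. As far as counting error goes, a count of 0 allows up to 3 counts, or 1.17e-05 to 1.53e-05% of the counts on genes.

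After incubation with IRE1, most mitochondrial mRNAs and both rRNAs were modestly higher. All 13 mRNAs and both rRNAs passed the filter on low counts, and none of the tRNAs did. Of these 15 members, 10 rose and 0 fell at an adjusted p-value under 0.05 (edgeR's quasi-likelihood test on all 14398 tested genes, Benjamini-Hochberg adjustment). An unadjusted p under 0.05 was also reached by MT-ND4L, which was lower, and DESeq2 likewise called 0 lower and 10 higher. Among all tested genes, 10.3% were called higher, 12.4% lower and 22.7% changed in either direction. Nuclear protein-coding genes with short transcripts, nearer in length to the members, were called higher more often. Where the longest transcript has up to 1000 bases, 49.4% were called higher and 0% lower. Above that and up to 2000 bases, 32.9% were called higher and 0.128% lower. The median log2 fold change of the 15 members was 0.17, against 0.0045 over all tested genes. Against 309 tested genes averaging 10000 normalized counts or more, most of the rises were less unusual. MT-RNR2, the median member, had 165 of these genes at or below its value. Of the members that rose, MT-ATP6 had the fewest at or below it (149) and MT-ND3 the most (288). In 10 members every IRE1-treated library lay above every control and in 1 every one lay below, where 19.1% and 20% of all tested genes did so.

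Over the whole table, the log2 fold change was larger for genes with shorter transcripts. The median log2 fold change was 0.25 over 324 nuclear protein-coding genes whose longest transcript has up to 1000 bases, 0.17 over 1557 genes above that and up to 2000 bases, and -0.13 over 5957 genes above 4000. Mitochondrial mRNAs are 207 to 1812 bases long. When the trend of each library with length and GC content, fitted on nuclear genes, was removed, the median of the 15 members was 0.03, and only MT-ND1 was still called higher and only MT-ND5 lower. In that fit 1273 of all 14398 tested genes were called higher and 722 lower. Relative to the summed mitochondrial count, MT-ND1 and MT-ND3 were called higher and MT-ND4L, MT-ATP8 and MT-ND5 lower. There 211 of all 14398 tested genes were called higher and 4148 lower. What part length had in these rises was not tested further. Scaling by library size alone left 6 higher, where 684 of all 14398 tested genes were called higher. Omitting control replicate 1 left 5, where 709 of 14542 tested genes were called higher. Omitting control replicate 2 left 4, where 638 of 14554 were.

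Complex I, the NADH dehydrogenase that passes electrons into the chain, has 7 of its core subunits encoded here, and they did not move together. MT-ND3 (chromosome MT, 10059 to 10404, plus strand in GRCh37) had 16603, 17758 and 17902 normalized counts in control replicates 1, 2 and 3, and 25873, 20792 and 20844 in the IRE1-treated replicates. The groups did not overlap, and IRE1-treated replicate 1 stood well above the other two. MT-ND3 rose by 0.37 on the log2 scale (SE 0.0700, edgeR adjusted p = 0.00187) and by 0.26 without that library. MT-ND1 (3307 to 4262, plus strand) had 39883, 39770 and 43074 as controls and 55375, 50770 and 49951 with IRE1. Here too the groups were apart, with a log2 fold change of 0.35 (SE 0.0509, edgeR adjusted p = 3.32e-04). It passed in every alternative tried, at 0.17 to 0.39. MT-ND2 (log2 fold change 0.26) and MT-ND4 (0.17) also rose.

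MT-ND4L, which encodes a small membrane subunit of complex I, went the other way. It spans 10470 to 10766 on the plus strand, and its last 7 bases (10760 to 10766) are also the first of MT-ND4 (10760 to 12137), since both reading frames sit on a single mRNA with MT-ND4L on the 5′ side. The junction is shown because the results turn on these neighbours. It is written 5′ to 3′ from GRCh37 chrM:10749-10778, plus strand, with the shared bases in capitals.
MT-ND4L and MT-ND4: aacctactccaATGCTAAaactaatcgtcc
The capitals hold the start codon of MT-ND4 and, in another frame, the stop codon of MT-ND4L.

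Raw counts of MT-ND4L were 22313, 20703 and 19055 in control replicates 1, 2 and 3, and 7078, 14444 and 19129 in IRE1-treated replicates 1, 2 and 3. After normalization they were 18870, 19969 and 19616 in the controls, against 8492, 15264 and 18579 with IRE1. All 3 IRE1-treated libraries were below all controls, replicate 3 by a small margin and replicate 1 by the most. The log2 difference from the control mean was -1.20, -0.35 and -0.07 in IRE1-treated replicates 1, 2 and 3. In each of these libraries MT-ND4L was the lowest of the 15 members. The group mean was 72.4% of the control mean, and the log2 fold change of -0.46 (standard error 0.170) missed the threshold (edgeR adjusted p = 0.0602).

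The size of this difference depended on 1 library. Without IRE1-treated replicate 1, the log2 fold change was -0.20 and passed (edgeR adjusted p = 0.00512). Without IRE1-treated replicate 3 it was -0.71 (edgeR adjusted p = 1.09e-04). It passed in 6 of 15 alternatives, negative in each, with adjusted p-values from 2.36e-21 (edgeR without a filter on low counts) to 0.263 (DESeq2). Of 309 tested genes averaging 10000 normalized counts or more, MT-ND4L had the second lowest log2 fold change. Over all tested genes, 5.26% were at or below its value.

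MT-ND4, the 3′ part of the same mRNA, had 245234, 246262 and 255280 normalized counts in the controls, against 286901, 273281 and 277157 with IRE1. It was higher in all 3 (0.17 on the log2 scale, SE 0.0413, edgeR adjusted p = 0.00973). The count of MT-ND4L for each count of MT-ND4, which does not depend on scaling, was 0.0769, 0.0811 and 0.0768 in the controls, against 0.0296, 0.0559 and 0.0670 with IRE1. The ratio was lower in every IRE1-treated library. Its mean log2 difference was -0.70, and a two-sided exact permutation test gave p = 0.1, the smallest value that 3 against 3 allows (0.2 after adjustment over the 4 ratios compared). Leaving out each library in turn gave -0.94 to -0.36, with -0.36 without IRE1-treated replicate 1.

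**Figure D3:**
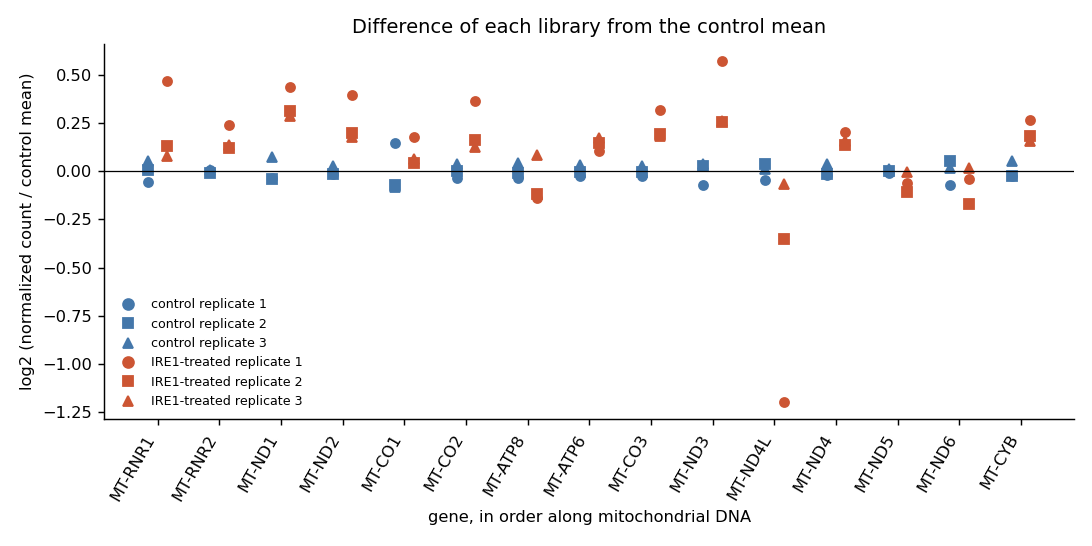
Log2 ratio of the normalized count in each library to the mean of the 3 controls, for the 15 tested members in order along mitochondrial DNA (controls blue, IRE1-treated red, 1 symbol per replicate number). MT-ND4L is the lowest point of each IRE1-treated library, at -1.20, -0.35 and -0.07, while MT-ND4 beside it is above 0 in all 3.

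ATP synthase has the other overlapping pair. MT-ATP8 (8366 to 8572, plus strand) and MT-ATP6 (8527 to 9207) share 46 bases and lie on 1 mRNA, again with the shorter gene on the 5′ side. The stretch around the start of MT-ATP6 inside MT-ATP8 is given from chrM:8515-8544, plus strand, with that start codon in capitals.
MT-ATP8 and MT-ATP6: ctgagaaccaaaATGaacgaaaatctgttc
MT-ATP6 encodes a subunit of the proton channel and rose, from 73804, 74850 and 76636 normalized counts in the controls to 80615, 83158 and 84600 with IRE1, or by 0.14 on the log2 scale (SE 0.0423, edgeR adjusted p = 0.0257). It turned negative, to -0.04, with the length and GC trend removed, and to -0.02 on the summed mitochondrial count.

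MT-ATP8 had 17072, 17398 and 17985 normalized counts in the controls, against 15862, 16093 and 18524 with IRE1. The groups overlapped, since IRE1-treated replicate 3 was above every control, and the log2 fold change of -0.06 did not pass (edgeR adjusted p = 0.533). Set against MT-ATP6, however, it was lower in each IRE1-treated library, with ratios of 0.231, 0.232 and 0.235 in the controls, against 0.197, 0.194 and 0.219 with IRE1. The mean log2 difference was -0.20 (exact permutation p = 0.1, adjusted 0.2), with -0.25 to -0.17 when any library was omitted.

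In both overlapping pairs, the ratio of the 5′ to the 3′ gene was thus lower in 3 of 3 IRE1-treated libraries. In the study's design, an RNA cut by IRE1 loses its 5′ part at poly(A) selection, so fewer reads come from that part. Counting also bears on these short genes. A read pair that reached from MT-ND4L beyond the shared bases could be assigned to neither gene, so its count comes largely from fragments that fit within its 297 bases, and that of MT-ATP8 from fragments within 207. Fragment lengths were not analysed here. The part of cutting and the part of fragment length in the result were not tested. MT-ND3, with 346 bases, was higher in every IRE1-treated library, but it shares no bases with another gene and is not a like case.

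**Figure D4:**
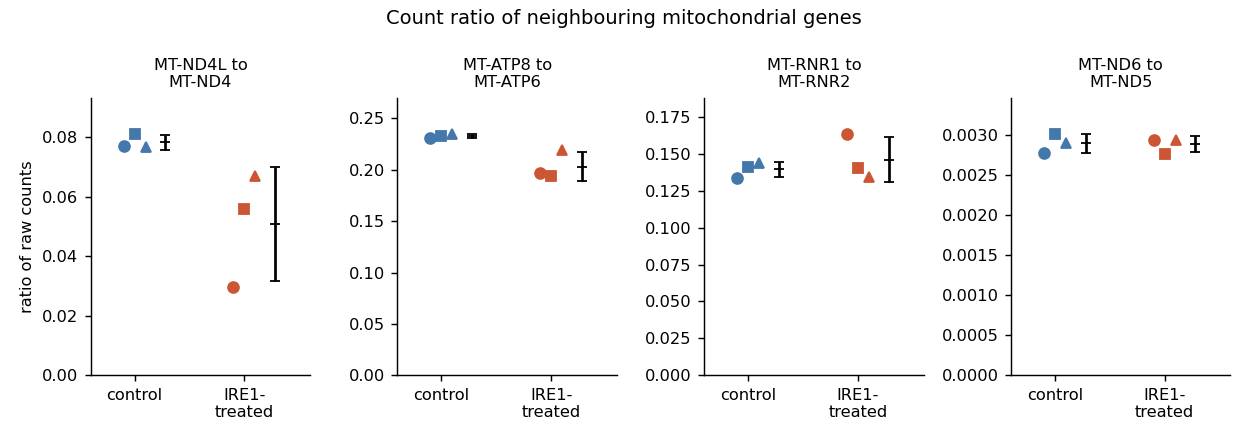
Ratio of raw counts in 4 pairs of mitochondrial genes, 1 point per library (controls blue, IRE1-treated red), with the mean and SD of each group as a bar at the side. MT-ND4L to MT-ND4 lies at 0.0768 to 0.0811 in the controls and 0.0296 to 0.0670 with IRE1, MT-ATP8 to MT-ATP6 is separated too, and the other 2 pairs overlap.

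MT-ND5 and MT-ND6 were the remaining complex I genes. MT-ND5 (12337 to 14148, plus strand) had 57866, 58273 and 58843 normalized counts in the controls, against 55816, 54185 and 58130 with IRE1. Control and IRE1-treated libraries overlapped at their edge, and the log2 fold change of -0.06 did not pass (edgeR adjusted p = 0.376). It was called lower when libraries were scaled by size alone (-0.13) and with the length and GC trend removed (-0.16). MT-ND6 (14149 to 14673, minus strand) had a log2 fold change of -0.06 with a standard error of 0.110, wide for its low count. The ratio of MT-ND6 to MT-ND5 was 0.00278 to 0.00301 in the controls and 0.00277 to 0.00294 in the IRE1-treated samples, and did not separate the groups (exact permutation p = 0.9).

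Of complex IV, the oxidase that hands electrons to oxygen, MT-CO2 and MT-CO3 rose and MT-CO1 did not pass. MT-CO2 (7586 to 8269, plus strand) went from 168800, 173337 and 177680 normalized counts to 222535, 193740 and 188969, a log2 fold change of 0.22 (SE 0.0551, edgeR adjusted p = 0.0100). For MT-CO3 (9207 to 9990) the log2 fold change was 0.23 (SE 0.0459, edgeR adjusted p = 0.00252). MT-CO1 (5904 to 7445) had 183390, 158023 and 156743 in the controls, against 187756, 170988 and 173200 with IRE1. Control replicate 1 was above 2 of the 3 IRE1-treated libraries, and the log2 fold change of 0.09 had an adjusted p of 0.268 (edgeR). Without that control it was 0.17, still short of the threshold (edgeR adjusted p = 0.0639). MT-CYB, the cytochrome b of complex III, rose by 0.20 on the log2 scale (SE 0.0460, edgeR adjusted p = 0.00570).

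Both rRNAs rose. MT-RNR2 (1671 to 3229, plus strand) had 40064, 39662 and 40172 normalized counts in the controls, against 47213, 43388 and 43921 with IRE1 (0.17 on the log2 scale, SE 0.0454, edgeR adjusted p = 0.0159). MT-RNR1 (648 to 1601) had 5359, 5589 and 5775 in the controls against 7705, 6096 and 5886. Its rise of 0.23 on the log2 scale (edgeR adjusted p = 0.0390) rested largely on IRE1-treated replicate 1, without which it was 0.11 (edgeR adjusted p = 0.0701), and it passed in only 1 of the 6 fits with a library left out. The ratio of MT-RNR1 to MT-RNR2 was 0.163 in that library and 0.134 to 0.144 in the controls (exact permutation p = 0.8 over all libraries). IRE1-treated replicate 1 was the highest of the 3 IRE1-treated libraries in 10 of the 15 members, and it was the lowest for MT-ND4L, MT-ATP8 and MT-ATP6. It also stood out among nuclear genes. Over the 324 with transcripts up to 1000 bases, the median log2 difference was 0.348, 0.242 and 0.158 in IRE1-treated replicates 1, 2 and 3.

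The study names CUGCAG, within a stem-loop, as the sequence IRE1 cuts. Its letters alone were searched as CTGCAG, which reads the same on both strands, and RNA folding was not analysed here. It occurs at 2 places in the 11395 bases of the 13 mRNAs, or 0.176 per kilobase, against 0.786 per kilobase in the longest transcripts of 12212 tested nuclear protein-coding genes. The sites are in MT-CO1 (chrM:6898-6927) and MT-ATP6 (chrM:9008-9037), printed here on the plus strand with the motif in capitals.
MT-CO1: tgaaatgatctgCTGCAGtgctctgagccc
MT-ATP6: ccgctaacattaCTGCAGgccacctactca
Of windows as long as MT-CO1, taken from the 3′ end of those nuclear transcripts, 59.7% hold the motif, and of windows as long as MT-ATP6 32.9%. MT-ND4L has no match in its 297 bases, a length at which 13.5% of the nuclear windows have one. A match is a description of sequence and not a cut site.

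How the mRNAs end is shown for MT-ND4 and MT-ND3, as an example of genes that need a tail to complete their reading frame. In 6 of the 13 mRNAs the gene stops short of a full stop codon, with 1 base past the last full codon in 5 of them and 2 bases in MT-ND1. Adenylation is known to complete these codons. The next gene is a tRNA in both examples, which are taken from chrM:12123-12152 and chrM:10390-10419, plus strand, with the last base of the gene in capitals.
MT-ND4: ccgggttttcctctTgtaaatatagtttaa
MT-ND3: tagactgaaccgaaTtggtatatagtttaa

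Over the 15 tested members, the log2 fold change had a Spearman correlation of 0.08 with gene length, 0.28 with GC content and 0.03 with the control level per kilobase. These points share the same 6 libraries and several share an mRNA or a precursor.

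Nuclear partners of the same complexes were mostly higher. Of 75 nuclear-encoded subunits of complexes I, III, IV and ATP synthase, all tested, 64 rose and 0 fell, with a median log2 fold change of 0.29. These calls were 85.3% of the subunits, where 10.3% of all tested genes were called higher and 22.7% in either direction. Of nuclear protein-coding genes whose longest transcript has up to 1000 bases, 49.4% were called higher. Above that and up to 2000 bases it was 32.9%. The subunits were not sorted by transcript length. The highest were NDUFB3 of complex I (0.45), UQCRB and UQCR10 of complex III (0.44 and 0.43) and ATP5PF of ATP synthase (0.43). UQCR10 was at 0.22 without IRE1-treated replicate 1, and missed the threshold in DESeq2 (adjusted p = 0.0992) and with the length and GC trend removed (0.24, edgeR adjusted p = 0.111). UQCRB was at 0.69 with that trend removed and NDUFB3 at 0.35. By complex, 32 of 37 rose in complex I, 6 of 9 in complex III, 9 of 11 in complex IV and 17 of 18 in ATP synthase. Of the mitochondrial members, 4 of 7 rose in complex I, 1 of 1 in complex III, 2 of 3 in complex IV and 1 of 2 in ATP synthase. The difference between the nuclear and mitochondrial subunits was not tested. With the length and GC trend removed, 39 of the 75 nuclear subunits were still called, as were 39 without control replicate 1 and 41 without control replicate 2. Of all 14398 tested genes, 1273 were called higher and 722 lower with the trend removed. Omitting control replicate 1 gave 709 higher and 972 lower of 14542. Omitting control replicate 2 gave 638 higher and 992 lower of 14554.

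**Figure D5:**
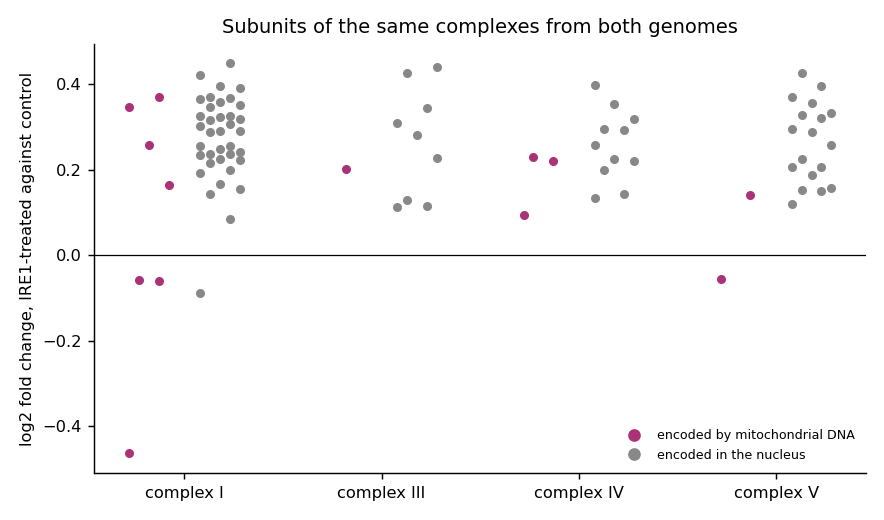
Log2 fold change of each respiratory subunit between IRE1-treated and control samples, by complex, for genes of mitochondrial DNA (purple) and of the nucleus (grey). Nuclear subunits run from -0.09 to 0.45, and MT-ND4L lies below all of them at -0.46.

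Nuclear genes that make and process mitochondrial RNA showed no common direction. Of 32 genes on this list, 31 were in the files and 30 were tested. In edgeR's test 3 rose and 2 fell (16.7%, against 22.7% of all tested genes), and the median log2 fold change was 0.03. The 5 calls became 2 without control replicate 3, 9 without IRE1-treated replicate 3 and 3 without each of the other libraries. Of all tested genes, 947 of 14649 were called higher and 1360 lower without control replicate 3. Without IRE1-treated replicate 3, 2091 of 14553 were called higher and 2221 lower. HSD17B10, a subunit of the enzyme that cuts the 5′ ends of mitochondrial tRNAs, rose by 0.27 on the log2 scale. MTERF4, which takes part in ribosome assembly, rose by 0.23, and REXO2, which degrades short RNA fragments, by 0.20. With the length and GC trend removed REXO2 was at 0.07 and missed the threshold (edgeR adjusted p = 0.441), as it did with library size only and without control replicate 1 or 3. MTERF4 missed it with library size only and without control replicate 2, control replicate 3, IRE1-treated replicate 1 or IRE1-treated replicate 2. PDE12, which removes poly(A) tails in mitochondria, had 753, 762 and 784 normalized counts in the controls and 526, 610 and 639 with IRE1, and fell by 0.37 on the log2 scale (edgeR adjusted p = 0.00262). With the length and GC trend removed PDE12 was at -0.13 and was not called (edgeR adjusted p = 0.201). LRPPRC, which stabilizes the mRNAs of the organelle, fell by 0.17 (edgeR adjusted p = 0.0471), but was at 0.11 with the length and GC trend removed. Its partner SLIRP (0.21), the RNA polymerase POLRMT (-0.10) and the transcription factor TFAM (-0.21) did not pass.

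Pseudogene copies of mitochondrial genes in the nucleus could share reads with the members. The annotation holds 409 such copies, 394 were in the files, 30 had a count and 9 were tested, of which 1 rose and 3 fell (44.4%, against 22.7% of all tested genes called in either direction). MTATP6P1 had the most, with 14180 ± 636 normalized counts in the controls and 17192 ± 1528 in the IRE1-treated samples (SD, n = 3). Its log2 fold change of 0.28 (edgeR adjusted p = 0.00368) stands beside 0.14 for MT-ATP6. With the length and GC trend removed, MTATP6P1 was at 0.09 and was not called (edgeR adjusted p = 0.251). MTND2P28 fell by 0.26 (edgeR adjusted p = 0.0115), whereas MT-ND2 rose by 0.26. MTND2P28 was at -0.41 with that trend removed, and missed the threshold without control replicate 3 (edgeR adjusted p = 0.0675). MT-ND2 was at 0.10 with the trend removed and was not called. The others that fell, named after their values were seen, were MTND5P11 (-1.10) and MTCO1P40 (-1.14). MTCO3P12 (0.08) and MTND4P12 (-0.09) did not pass, and MTCO3P12 averaged 263 normalized counts in the controls and MTND4P12 94.9. How STAR and HTSeq divided reads between a member and its copies was not tested.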

How the data were processed

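Reads were trimmed (Cutadapt 1.12), mapped to GRCh37 with Ensembl release 87 (STAR 2.5.3a) and counted as pairs per gene (HTSeq 0.6.1p1) by the authors, per the submitters' processing notes and the methods. Strand setting and overlap mode are not given in the sources used here. The deposited files hold raw counts, used as deposited. Summary lines that name no gene (21.4 to 23.2% of all counts) were left out. The authors' CPM table of the same libraries was not used.

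From the counts, edgeR 4.0.16 (R 4.3.3) was run after filterByExpr, which kept 14398 of the 24945 genes that had any count, with TMM scaling and the quasi-likelihood test on all 6 libraries without covariates, with Benjamini-Hochberg adjustment over all tested genes and a threshold of 0.05. In data simulated for IRE1-treated against control libraries with 14398 genes, 89 of 100 changes of 2-fold and 76 of 100 of 1.5-fold were recovered, and 13 unchanged genes were called. No smaller change was planted, so recovery of changes as small as the rises of the members was not measured. Chi-square per gene between library pairs was 2.20 to 29.3, above the value near 1 of sampling noise alone, and all 6 libraries were kept as separate samples. Gene ratios were compared by exact permutation of libraries. Depth limits MT-ND6 and the tRNAs most, and floors cover counting error only.

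Gene names and positions came from GENCODE release 44 on GRCh37, whose chromosome MT has 16569 bases, and match 55538 identifiers. Sequences were read from that genome. Alternatives were DESeq2 1.42.0, other scalings and filters, a replicate block, removal of a length and GC trend (loess, span 0.5) and each library left out. Members and lists were chosen with earlier results of these data known. Named genes are all mitochondrial mRNAs and rRNAs, tRNAs with at least 10 normalized counts (none; MT-TM was named after its values were seen), 4 set machinery genes with the 6 most changed (5 were called), the 4 most changed nuclear subunits and the 4 nuclear copies with most counts. The study calls its 6 samples biological replicates.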

Additional observations from a re-analysis of the deposited data

How the results depend on the processing

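The count of 10 higher and 0 lower mitochondrial genes moved to 6 and 1 with library size only, to 1 and 1 with the length and GC trend removed, to 1 and 3 with that trend and a replicate block together, and to 2 and 3 with the summed mitochondrial count as library size. Over all 14398 tested genes, 1489 were called higher and 1781 lower in the main fit. With library size only these were 684 and 2594, and with the trend removed 1273 and 722. With trend and block they were 1100 and 590, and with the summed mitochondrial count 211 and 4148. The lower count of mitochondrial genes was 1 without a filter on low counts and 1 with the replicate block (MT-ND4L in both). In these fits 2037 of 24945 and 1496 of 14398 tested genes were called lower. With a library left out, 4 (without control replicate 2) to 10 were higher and 0 to 1 lower. In these leave-one-out fits the single lower gene was MT-ND4L, found without IRE1-treated replicate 1 or 3. Nuclear respiratory subunits called numbered 64, then 39 with the trend removed, 35 with trend and block, and 39 (without control replicate 1) to 71 with a library left out. Machinery genes called numbered 5, then 3 with the trend removed, 2 with trend and block, and from 2 to 9 when control replicate 3 or IRE1-treated replicate 3, respectively, was omitted. The higher share of mitochondrial counts was 0.202 percentage points with summary lines in the total, and 0.603 relative to TMM-scaled nuclear genes. Directions reversed for MT-CO1 (-0.031 with the trend removed, -0.029 with trend and block, -0.068 on the summed mitochondrial count), MT-ATP6 (-0.041, -0.042 and -0.019 in the same fits), LRPPRC (0.11 with the trend removed and with the block added) and MTCO3P12 (-0.11 in both of these fits, and -2.20e-04 to 0.149 with a library left out). MTND4P12 ranged from -0.302 to 0.0925, the latter without control replicate 3. The log2 ratio of MT-RNR1 to MT-RNR2 was 0.06, and -0.023 (without IRE1-treated replicate 1) to 0.12 with a library left out. That of MT-ND6 to MT-ND5 was -0.006, and -0.037 to 0.023, above 0 without control replicate 2 or IRE1-treated replicate 2. The higher share kept its sign with any library omitted (0.253 to 0.357). The causes were not tested.

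Same-numbered samples did not deviate together (correlations of -0.04, -0.005 and -0.11), so the replicate number was not taken as a pairing. Under the replicate block, MT-ND4L was called lower, at -0.54, and the log2 ratio of MT-ND4L to MT-ND4 was -0.70 (exact sign-flip p = 0.25, the smallest that 3 pairs allow). Depth limits MT-ND6, with 137 to 190 counts per library.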
